A study of Homo sapiens with 9 samples.

Results

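ASNS, PSPH, PSAT1, SHMT2, SLC7A5, SLC38A2, DDIT3 and ATF3 are 8 genes that the transcription factor ATF4 is known to switch on, and 6 of the 8 supply cells with amino acids. They were taken by symbol from the deposited table, which lists 32 transcripts of these 8 genes among 20909 transcripts of 6819 genes. The genes were chosen by their expression differences between the 3 groups, as seen in earlier results of these libraries. Their fold changes, p-values and calls are therefore given as a description and support nothing on their own. RNA was sequenced from Caki-1, a human clear cell renal cell carcinoma line, in 3 groups of 3 libraries. The control group has the genotype WT, and the groups SH1 and SH3 are both labelled as TAF1D knockdown, made with short hairpin RNA. TAF1D encodes a subunit of the factor that recruits RNA polymerase I to the ribosomal RNA genes. No age, treatment or time is given for any group. The labels do not spell out SH1 and SH3, give no hairpin sequence, and do not say whether each is 1 clone or whether the 3 libraries of a group come from separate cultures. The p-values below therefore measure the spread between these libraries, which may be technical.

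ATF4 is translated when the initiation factor eIF2alpha is phosphorylated, which happens in cells short of amino acids or under stress in the endoplasmic reticulum, and also when mTORC1 is active. It then binds, with a C/EBP partner, to short elements of the form TGATGNAAN near the genes for amino acid synthesis, amino acid uptake and tRNA charging. DDIT3 and ATF3 are themselves bZIP transcription factors made in the same response. In renal carcinoma as in other tumours the programme is known for keeping asparagine and serine available to dividing cells.

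The ATF4 site in the ASNS promoter is the textbook case, so the 128 bases before its start are shown first, with the site TGATGAAAC and its partner element GTTACA in capitals. Of the other 5 genes with a promoter sequence at hand, ATF3 alone has a match to TGATGNAAN. CEBPG and JDP2, also ATF4 targets, are shown beside it because both are in the table and hold a match before the start on the gene's own strand. All are RefSeq sequences of the assembly GRCh38.p14, 5′ to 3′ on the gene's own strand.
ASNS, chr7:97872409-97872536, minus strand: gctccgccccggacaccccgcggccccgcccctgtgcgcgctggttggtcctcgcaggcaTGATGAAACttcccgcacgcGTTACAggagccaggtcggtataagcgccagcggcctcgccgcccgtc
ATF3, chr1:212565196-212565244, plus strand: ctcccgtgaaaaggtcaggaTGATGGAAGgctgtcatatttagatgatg
CEBPG, chr19:33374051-33374099, plus strand: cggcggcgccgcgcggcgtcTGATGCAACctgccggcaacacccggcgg
JDP2, chr14:75427986-75428021, plus strand: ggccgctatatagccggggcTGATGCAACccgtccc
The capitals of ATF3, CEBPG and JDP2 mark the match to TGATGNAAN. Counted from the start, the match begins at base -68 in ASNS, -191 in ATF3, -42 in CEBPG and -16 in JDP2, and GTTACA begins at -48 in ASNS.

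RefSeq promoter windows, from 250 bases before to 50 after each start, were at hand for 6 of the 8 genes, 9 windows in all. ASNS and ATF3 had 2 windows each, and 1 of the 2 held the match. The positions above count from the start that this window surrounds. Which start the listed transcripts use was not examined. On either strand, TGATGNAAN was in 2 of these 9 windows, in 8 of the 43 windows of other ATF4 targets, and in 1268 of all 35116 windows (3.61%). The exact ASNS site TGATGAAAC, which TGATGNAAN includes, was in 79 windows (0.225%), that of SLC7A1 among them. GTTACA was in 2340 windows (6.66%). A match describes the letters only, and binding was not measured.

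The table itself sets limits on what can be read. Between control 1 and SH1 1, 100% of the listed transcripts differed at least 2-fold in estimated count. For the remaining 35 pairings of libraries the share was 51.51% to 64.85%. The table is thus a selection in which the values of these 2 libraries are extreme and other transcripts of the same genes are left out. Both libraries enter the test of SH1 against control. Its p-values, and the shares of the table that passed, therefore draw on values used in the selection. The comparisons with SH3 each use 1 of the 2 libraries. The listed estimated counts added up to 1358215 to 1596467 per library, or 4.2% to 5.18% of its TPM. TAF1D and ATF4 had 0 listed transcripts and were not analysed here, and whether TAF1D was lowered in SH1 and SH3 cannot be read from it. Of 14 markers of renal epithelium 3 were listed (KRT19, MUC1 and PAX8), with a summed level of 73 to 93 FPKM in control, 22.6 to 27.1 in SH1 and 63.7 to 76.8 in SH3. KRT19, a keratin, accounts for most of this and fell in SH1 (log2 fold change -2.32 ± 0.20 SE, edgeR adjusted p = 0.00134). The other markers did not follow it. PAX8 was at 2.26, 3.08 and 1.44 FPKM in control and higher in SH1, at 6.65, 4.44 and 5.16 (1.08 ± 0.54, edgeR adjusted p = 0.525). MUC1 was at 0.61, 0.49 and 0.33 FPKM in control and 0.54, 0.57 and 0.32 in SH1. Of the markers of other cells, 1 of 8 for fibroblasts (PDGFRB, 0.16 to 0.34 FPKM over all libraries), 0 of 7 for endothelium and 1 of 8 for blood were listed. The blood marker was CD68, at 7.84 to 12.5 FPKM in control, 13.2 to 17.8 in SH1 and 12.7 to 14.1 in SH3. The part of these marker shifts in the results below was not tested.

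ASNS, asparagine synthetase, makes asparagine from aspartate and glutamine (gene 440, chromosome 7). Its 5 listed transcripts added up to 12.7, 11.4 and 10.8 FPKM in controls 1 to 3. The sums were 5.41, 6.14 and 4.51 FPKM in SH1 and 116, 124 and 111 FPKM in SH3. The 3 groups did not overlap: every SH3 library was far above every control, and every SH1 library was below every control. The means were 11.6 ± 1 FPKM in control, 5.35 ± 0.816 in SH1 and 117 ± 6.87 in SH3 (SD, n = 3 each). On the scale of fitted counts ASNS was 8.92-fold higher in SH3 than in control (log2 fold change 3.16 ± 0.14 SE), 2.4-fold lower in SH1 than in control (-1.26 ± 0.13) and 21.4-fold higher in SH3 than in SH1 (4.42 ± 0.15). Behind the sums stood 215 to 5006 estimated counts per library. In bulk RNA, fewer cells of a type and less RNA per cell cannot be told apart.

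The single ASNS transcripts were much less steady than their sum. NM_001178077 was at 6.2, 0 and 3.88 FPKM in controls 1 to 3, at 0.95, 3.27 and 0.15 in SH1, and at 47.3, 60.7 and 43.5 in SH3. NM_133436 was at 0.7, 5.76 and 3.47 FPKM in control, 1.6, 0.68 and 1.7 in SH1, and 15.1, 12.6 and 16 in SH3. In control 2, where the first was listed at 0, the second took its highest share of the sum, 50.7%, against 5.5% in control 1. The shares of NM_001178077 ran from 0% to 48.7% over the controls and from 3.33% to 53.3% over SH1, but only from 39.3% to 48.9% over SH3, where its count is larger. NM_001673 was at 3.63, 3.19 and 1.41 FPKM in control, 1.8, 0.5 and 1.8 in SH1, and 44, 40.9 and 42 in SH3. All 5 transcripts were higher in every SH3 library than in every control and every SH1 library, with log2 fold changes of 1.85 to 4.78 against control and 3.01 to 5.16 against SH1. Between SH1 and control, the transcripts overlapped apart from 1 and their log2 fold changes ran from -1.42 to 1.55. The share of NM_001352496 was smaller in SH3 than in both other groups without overlap, with 17.3% to 19.8% of the sum in control, 13.1% to 24.9% in SH1 and 6.73% to 6.98% in SH3. In SH3 it was at 8.08, 8.41 and 7.45 FPKM, against 2.2, 2.25 and 2.02 in control.

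PSPH, phosphoserine phosphatase, carries out the last step of serine synthesis (gene 5723, chromosome 7). Its 15 listed transcripts added up to 16.1, 12.3 and 14.4 FPKM in controls 1 to 3, 11.5, 9.71 and 11.2 in SH1, and 32.3, 33.5 and 32.9 in SH3. As for ASNS, SH3 was highest and SH1 lowest, with no overlap between any 2 groups, though SH1 and control lay close together. The means were 14.3 ± 1.93, 10.8 ± 0.96 and 32.9 ± 0.61 FPKM (SD, n = 3 each), so the 3 SH3 libraries differed by a coefficient of variation of 1.86%. PSPH was 2.2-fold higher in SH3 than in control (log2 fold change 1.14 ± 0.13 SE), 1.44-fold lower in SH1 than in control (-0.52 ± 0.13) and 3.16-fold higher in SH3 than in SH1 (1.66 ± 0.14). The reads are spread over many transcripts, and 13 of the 15 were listed at 0 in at least 1 library. NM_001370514, the transcript with the highest mean in SH3, was at 3.63, 2.21 and 0.76 FPKM in control, 1.36, 0.01 and 0 in SH1, and 5.44, 5.55 and 7.24 in SH3. NM_001370503 was at 0.7, 1.66 and 3.6 FPKM in control, 2.35, 3.34 and 1.54 in SH1, and 6.39, 4.52 and 5 in SH3. Both were higher in every SH3 library than in every other library, as 6 of the 15 transcripts were against control and 5 against SH1. The log2 fold changes of the 14 tested transcripts in SH3 against control ran from -2.07 to 3.05.

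**Figure D1:**
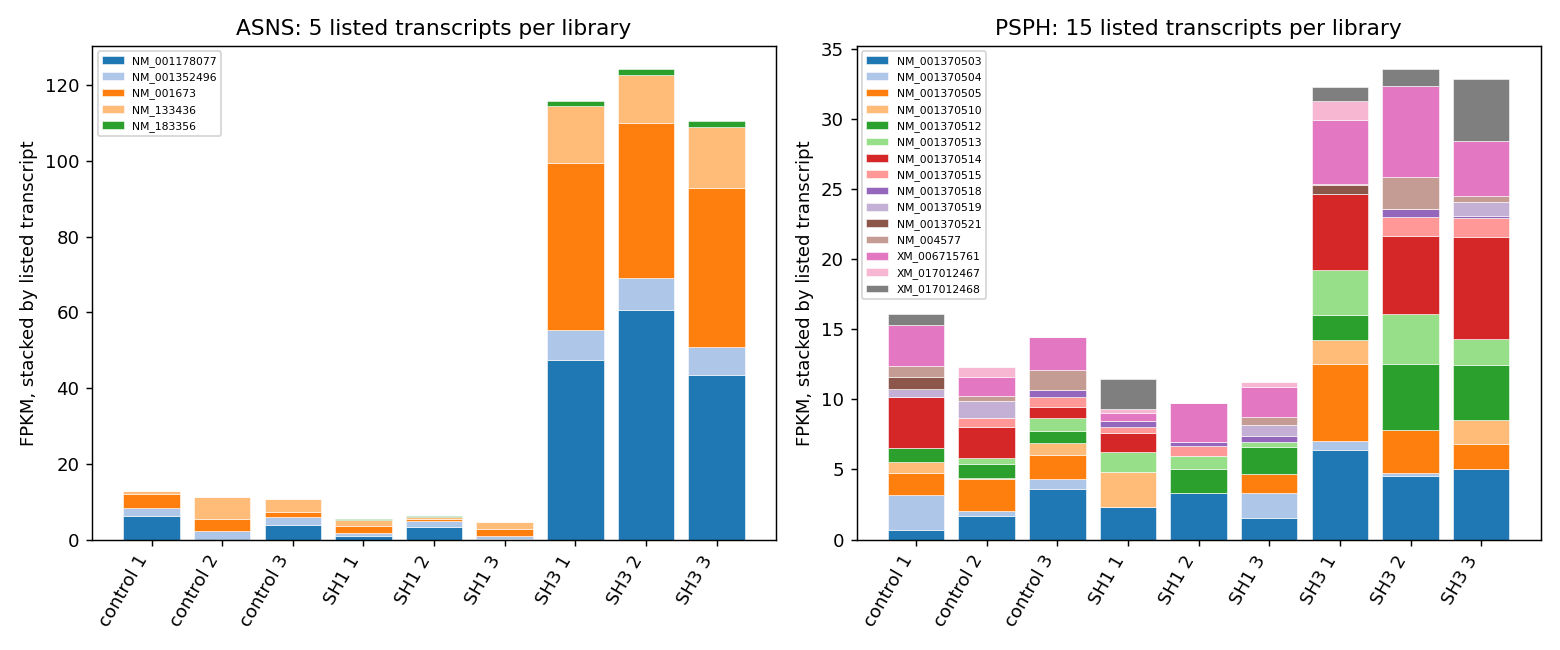
FPKM of the listed transcripts of ASNS (left) and PSPH (right), stacked within each of the 9 libraries; each colour is 1 transcript and the height of a bar is the gene's sum. The ASNS bars reach 111 to 124 FPKM in SH3 and stay at or under 12.7 elsewhere, and the PSPH bars reach 32.3 to 33.5 in SH3, while the colours within a bar differ between libraries of 1 group.

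PSAT1, phosphoserine aminotransferase, acts 1 step before PSPH (gene 29968, chromosome 9), and 1 of its transcripts was listed. It was at 3.11, 1.8 and 2.33 FPKM in controls 1 to 3, at 0, 0 and 0.99 in SH1, and at 3.22, 4.06 and 1.66 in SH3. SH1 was below both other groups in every library, and SH3 overlapped control. The means were 2.41 ± 0.659, 0.33 ± 0.572 and 2.98 ± 1.22 FPKM (SD, n = 3 each), with log2 fold changes of -3.0 ± 1.68 SE in SH1 and 0.23 ± 1.54 in SH3 against control. The SH1 value rests on SH1 3, the 1 SH1 library above 0: it ran from -9.63 to -2.18 over the alternatives, the former without SH1 3, when all SH1 values are 0 and the fit depends on the prior count. The SH3 value ran from -0.06 to 0.52, so its sign is not fixed.

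SHMT2, the mitochondrial serine hydroxymethyltransferase, splits serine into glycine and a folate-bound carbon unit (gene 6472, chromosome 12). Its 3 listed transcripts added up to 0.59, 2.42 and 1.48 FPKM in controls 1 to 3, 1.2, 0.2 and 0.53 in SH1, and 2.57, 2.72 and 2.04 in SH3. SH3 was above SH1 in every library, and control overlapped both. The log2 fold changes were -1.44 ± 0.79 SE in SH1 and 0.59 ± 0.77 in SH3 against control, and 2.03 ± 0.80 in SH3 against SH1. Over the alternatives they ran from -2.56 to -0.85, from 0.19 to 1.18 and from 1.61 to 2.77, and without control 2 the first 2 were -0.85 and 1.18. Nearly all of the signal in control and SH3 came from XM_011538677, a predicted transcript, at 0.59, 2.42 and 1.48 FPKM in control, 0, 0 and 0.53 in SH1, and 2.57, 2.38 and 1.71 in SH3.

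The 2 transporters were less steady between libraries than the enzymes ASNS and PSPH. SLC7A5 is LAT1, the light chain of the exchanger that brings in leucine and other large neutral amino acids (gene 8140, chromosome 16). Its 3 listed transcripts added up to 4.82, 8.29 and 21.5 FPKM in controls 1 to 3, 1.99, 4 and 4.53 in SH1, and 11.7, 14.4 and 7.64 in SH3. All 3 are predicted transcripts, and the 1 SLC7A5 transcript that RefSeq holds was not listed, so the sum need not follow the gene's main transcript. In this sum SH1 was below every control and every SH3 library, and SH3 lay inside the range of the controls. Control 3 stood out through XM_006721286, which was at 19.8 FPKM there and at 3.28 and 2.53 in controls 1 and 2. The means were 11.5 ± 8.82, 3.51 ± 1.34 and 11.2 ± 3.4 FPKM (SD, n = 3 each), with log2 fold changes of -2.47 ± 0.75 SE in SH1 and -0.30 ± 0.71 in SH3 against control. The SH1 value ran from -2.86 to -1.33 over the alternatives, the smallest change being that without control 3. The SH3 value ran from -0.70 to 0.83, so its sign is not fixed.

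SLC38A2 is SNAT2, which takes up glutamine, alanine and other small neutral amino acids with sodium (gene 54407, chromosome 12), and 1 of its transcripts was listed. It was at 6.97, 3.53 and 0.96 FPKM in controls 1 to 3, at 2.7, 5.25 and 2.42 in SH1, and at 10.9, 12.4 and 3.47 in SH3. All 3 groups overlapped, since SH3 3 was below control 1. The means were 3.82 ± 3.02, 3.46 ± 1.56 and 8.95 ± 4.8 FPKM (SD, n = 3 each), and the log2 fold change in SH3 against control was 1.17 ± 0.73 SE. It ran from 0.71 without control 3 to 1.85 without control 1 and SH1 1.

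DDIT3, also called CHOP, is the bZIP factor that acts late in prolonged stress (gene 1649, chromosome 12). Its 2 listed transcripts added up to 7.22, 5.92 and 11.1 FPKM in controls 1 to 3, 5.78, 6.21 and 3.99 in SH1, and 22.9, 22.4 and 11.3 in SH3. Every SH3 library was above every control and every SH1 library, though SH3 3 was only just above control 3, and SH1 overlapped control. The means were 8.07 ± 2.67, 5.33 ± 1.18 and 18.9 ± 6.53 FPKM (SD, n = 3 each). The log2 fold changes were -0.76 ± 0.39 SE in SH1 and 1.14 ± 0.39 in SH3 against control, and 1.90 ± 0.40 in SH3 against SH1. NM_004083 carried most of it, with 7.22, 5.92 and 7.71 FPKM in control, 3.46, 6.21 and 1.29 in SH1, and 21.5, 22.4 and 11.3 in SH3.

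ATF3, an early stress-induced bZIP factor and, beside ASNS, a member with a promoter match shown above (gene 467, chromosome 1), was near 0 outside SH3. Its 2 listed transcripts added up to 0.81, 0.11 and 0 FPKM in controls 1 to 3, 0.73, 0.55 and 0 in SH1, and 7.01, 1.46 and 3.34 in SH3. SH3 was above both other groups in every library, and its own libraries spread widely. The means were 0.307 ± 0.439, 0.427 ± 0.38 and 3.94 ± 2.82 FPKM (SD, n = 3 each), with a log2 fold change of 3.66 ± 1.86 SE in SH3 against control. That value was 5.99 without control 1 and 2.97 without SH3 1, the highest and the lowest over the alternatives. NM_001674 was at 5.95, 0 and 2.31 FPKM in SH3 1 to 3 and NM_001206486 at 1.06, 1.46 and 1.03, so the spread lay in the former.

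**Figure D2:**
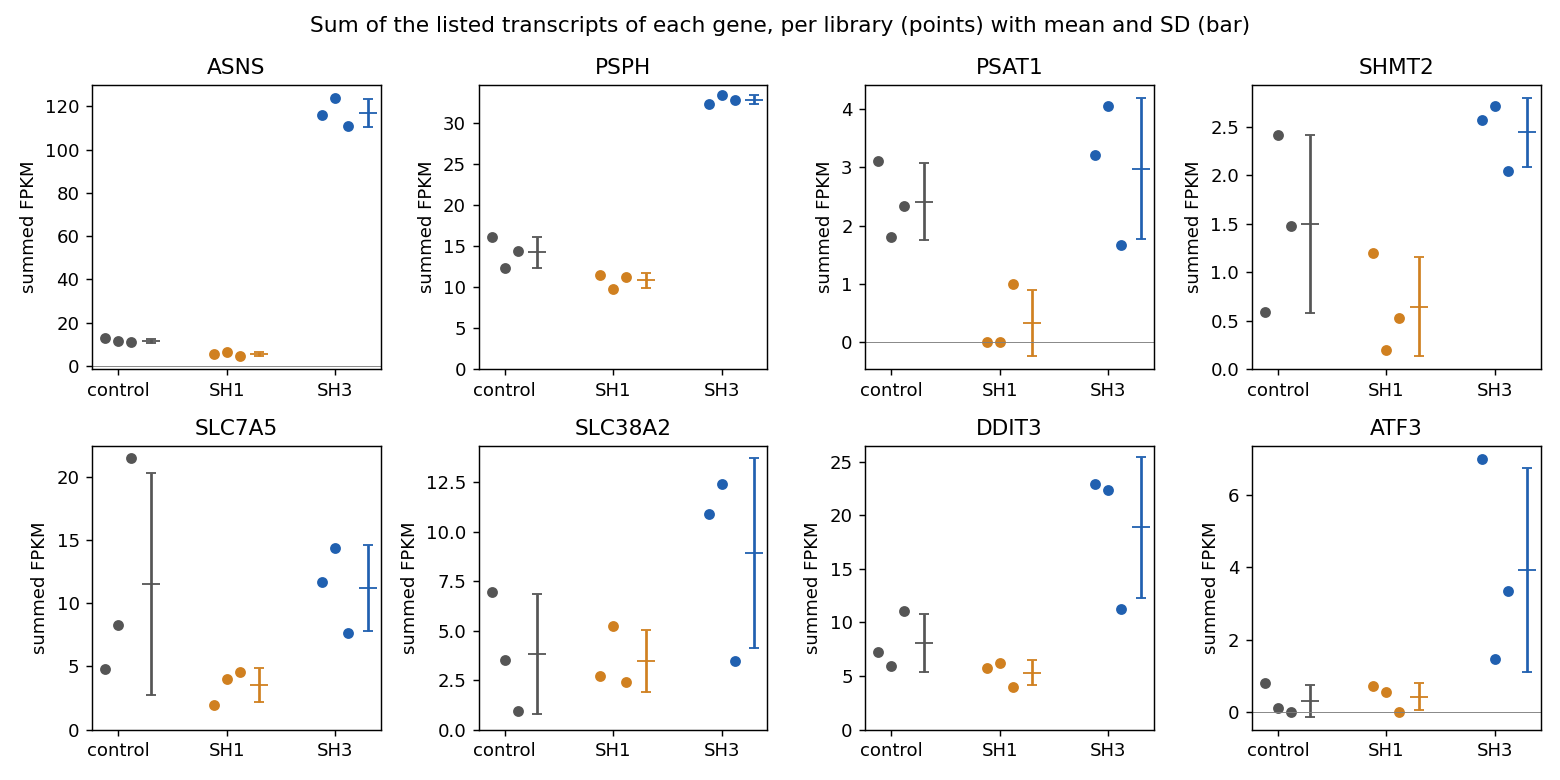
Sum of the listed transcripts of each of the 8 genes in FPKM (vertical axes, each with its own scale); points are libraries 1 to 3 of control, SH1 and SH3, and the bars give the mean and SD. ASNS shows 3 tight, separate groups, and for PSPH SH3 is tight and apart while SH1 lies close below control. SLC38A2 overlaps throughout and SLC7A5 is spread in control by 1 library at 21.5 FPKM.

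Side by side, SH1 had the lowest mean sum for 7 of the 8 genes, ATF3 excepted, and SH3 the highest for 7, SLC7A5 excepted. By the FPKM of listed transcripts, ASNS went from below PSPH in control and SH1 to the highest of the 8 in SH3. The sums cover unlike parts of each gene, with 5 of 7 RefSeq transcripts listed for ASNS, 15 of 36 for PSPH and 0 of 1 for SLC7A5. This order therefore does not rank the expression of the whole genes. Within SH3, replicate 3 had the lowest sum of its group for 6 of the 8 genes and replicate 2 the highest for 6. In SH3 against SH1, 8 of 8 sums had a log2 fold change above 0, as did 50.3% of all 6398 sums tested, and 7 were higher without overlap, as were 9.75%. In SH3 against control 7 of 8 were above 0 (48.6% of all sums) and 4 were higher without overlap (10.2%). In SH1 against control 1 of 8 was above 0 (48.6% of all sums) and 4 were lower without overlap (7.33%). The median log2 fold changes of the 8 sums were -1.01, 1.14 and 2.10 in SH1 against control, SH3 against control and SH3 against SH1, beside -0.03, -0.03 and 0.00 over all sums. SH1 and SH3 are set against the same 3 controls, and the genes were picked with these contrasts in view, so nothing further is read from these counts.

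At an adjusted p of 0.05 in edgeR's quasi-likelihood test, ASNS was the 1 sum past the threshold in SH1 against control, where 2.14% of all sums passed and 1.08% passed as lower. ASNS and PSPH were the 2 past it in SH3 against control, where 0.406% passed and 0.297% as higher. They were again the 2 in SH3 against SH1, where 1.36% passed and 0.781% as higher. Taken transcript by transcript, 30 of the 32 could be tested. Of these, 0 passed in SH1 against control (0.131% of all 17495 transcripts tested) and 0 in SH3 against control (0.0286%) by edgeR. DESeq2 called 0 and 1 of them, beside 487 and 356 of all transcripts. The unadjusted p from edgeR was under 0.05 for 0 and 4, beside 1369 and 1027 of all 17495. In SH3 against SH1, 1 passed as higher, NM_001673 of ASNS (0.0972% of all transcripts passed, 0.0629% as higher). This call was kept under 6 of 16 alternatives. It is lost without control 2 or any 1 SH1 or SH3 library, with only the groups compared, with a replicate block and without control 1 and SH1 1 together. The log2 fold change was above 0 for 11 of the 30 in SH1 against control (51.5% of all transcripts), 26 in SH3 against control (51.3%) and 27 in SH3 against SH1 (49.7%). Without overlap, 5 of the 30 were lower in SH1 than in control (6.45% of all transcripts), 13 were higher in SH3 than in control (7.26%) and 15 were higher in SH3 than in SH1 (6.68%). The PSPH call in SH3 against control is lost without control 2, control 3 or any 1 of the SH3 libraries, and also with only the groups compared, with a replicate block and in the 7 libraries without control 1 and SH1 1. Its log2 fold change stayed between 1.08 and 1.20 throughout. The calls of the ASNS sum in SH3, against control and against SH1, were kept under all 16 alternatives, and the call in SH1 under 15, the exception being the fit of only the groups compared. The alternatives refit the same libraries by which the genes were chosen, so the calls and their persistence remain a description.

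**Figure D3:**
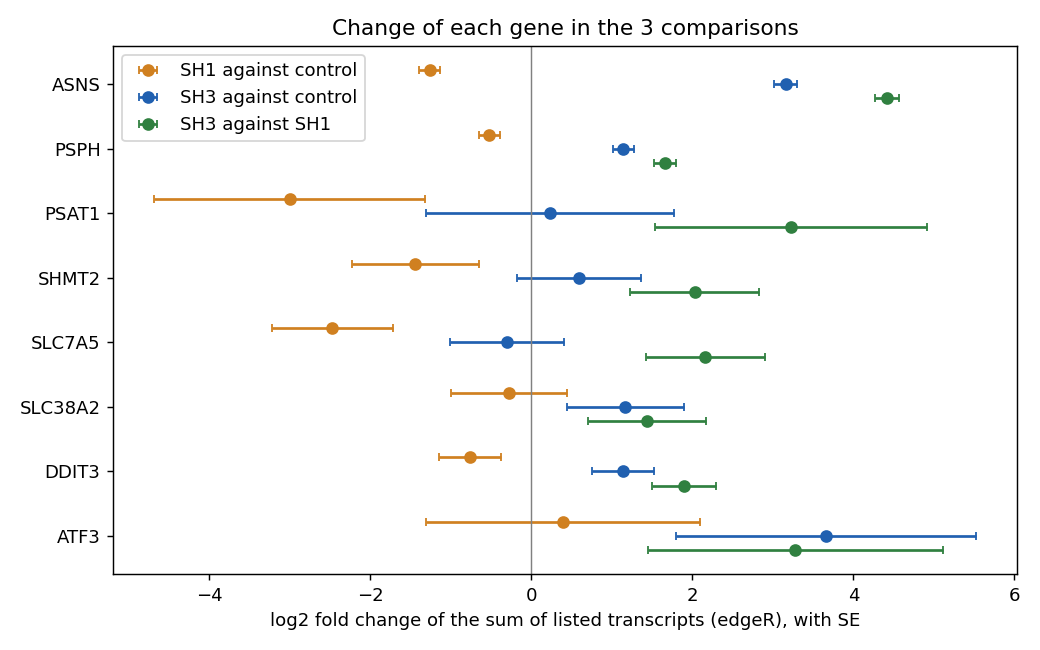
Log2 fold change of the sum of listed transcripts of each gene (horizontal axis, edgeR) with its SE, for SH1 against control, SH3 against control and SH3 against SH1. ASNS and PSPH have SEs of 0.13 to 0.15, and PSAT1 and ATF3 have SEs of 1.54 to 1.86 that span much of the axis.

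Some of this signal could be shared with related sequences. By name, RefSeq holds 5 ASNS, 4 PSAT1, 2 SLC7A5 and 1 PSPH pseudogenes, of which 0 are in the table. Other genes overlap ASNS (3 genes, the readthrough CZ1P-ASNS among them), SLC7A5 (3, with SLC7A5-AS1), DDIT3 (3, with MARS1) and SHMT2 (1). Whether counting used strand is not given in the sources used here, so reads of overlapping genes cannot be told apart.

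Of 33 other ATF4 targets, 15 were listed and tested, and 0 passed the threshold of edgeR in each of the 3 comparisons. An unadjusted p under 0.05 in edgeR was found for 2 in each, and DESeq2 called 0, 2 and 2. Over all 6398 sums, 736, 537 and 690 had such an unadjusted p, and DESeq2 called 459, 257 and 402. The same totals apply to the lists below. The summed level of the 15 was 24.5 to 34.8 FPKM in control, 23 to 27.4 in SH1 and 40.3 to 44.4 in SH3. Of the 15, 10 had a positive log2 fold change in SH3 against control and 10 against SH1, where 48.6% and 50.3% of all sums did, and 4 had one in SH1 against control, where 48.6% did. Without overlap, 4 were higher in SH3 than in control, as were 10.2% of all sums, and 8 were higher than in SH1, as were 9.75%. The medians were -0.17, 0.35 and 0.85 in SH1 against control, SH3 against control and SH3 against SH1.

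By their mean over all 9 libraries, the 4 highest of these were 2 enzymes of proline synthesis and 2 membrane carriers. Within SH3 alone the mean of SLC6A9, given below, was higher than those of PYCR1 and SLC3A2. ALDH18A1, which opens proline synthesis from glutamate, was at 8.5, 9.49 and 5.33 FPKM in control, 5.09, 6.32 and 4.59 in SH1, and 7.59, 6.81 and 8.05 in SH3 (log2 fold change in SH3 against control -0.15 ± 0.27 SE). PYCR1, which closes it, was at 2.52, 7.22 and 6.68 FPKM in control, 2.92, 2.43 and 3.64 in SH1, and 6.28, 4.73 and 4.68 in SH3 (-0.23 ± 0.40). In both, SH3 lay above every SH1 library and overlapped control. SLC3A2, the heavy chain that pairs with SLC7A5 at the membrane, was at 1.97, 3.8 and 5.35 FPKM in control, 0.59, 2.87 and 2.84 in SH1, and 3.73, 5.81 and 3.41 in SH3 (0.12 ± 0.65). SLC43A1, a carrier of large neutral amino acids, was at 2.91, 3.89 and 3.6 FPKM in control, 2.6, 4.56 and 3.54 in SH1, and 5.02, 6.16 and 4.79 in SH3 (0.53 ± 0.31). SH3 was above every control for SLC43A1 but not for SLC3A2. None of these 4 passed the threshold in any of the 3 comparisons.

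A further 3 targets, chosen after their values were seen, were low in control and SH1 and higher in every SH3 library. CEBPG, a C/EBP partner of ATF4 whose promoter match is shown above, was at 0.46, 0.56 and 0.32 FPKM in control, 0.42, 0.49 and 0.66 in SH1, and 1.4, 2.29 and 1.85 in SH3 (log2 fold change in SH3 against control 1.96 ± 0.48 SE, edgeR adjusted p = 0.212). SLC6A9, the glycine transporter GLYT1, was at 1.09, 1.68 and 0.61 FPKM in control, 1.12, 0.67 and 1.71 in SH1, and 4.3, 4.6 and 6.89 in SH3 (2.16 ± 0.53). SLC1A4, which carries serine and alanine, was at 0.33, 0.53 and 0.42 FPKM in control, 0.81, 0 and 0 in SH1, and 2.9, 2.67 and 3.01 in SH3 (2.63 ± 1.68). DESeq2 called CEBPG and SLC6A9 higher in SH3 against both other groups, and edgeR did not. JDP2, which has the match nearest to its start among those shown, was at 0.58, 0.45 and 1.49 FPKM in control, 0, 1.6 and 0.75 in SH1, and 0.38, 0.93 and 0.18 in SH3, with all groups overlapping.

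Aminoacyl-tRNA synthetases load amino acids onto their tRNAs, and several are known ATF4 targets. Of 20 in all, 11 were listed and 9 tested, and IARS1 was the 1 past the threshold, in SH1 against control (2.14% of all sums passed) and in SH3 against SH1 (1.36%). In SH3 against control 0 passed (edgeR, where 2 had an unadjusted p under 0.05; DESeq2 called 0). It encodes the isoleucyl-tRNA synthetase and was at 31.9, 37.7 and 30.5 FPKM in control, 16.4, 19.8 and 13.4 in SH1, and 43.3, 30 and 43.1 in SH3. IARS1 fell in SH1 against control (log2 fold change -1.18 ± 0.22 SE, edgeR adjusted p = 0.0391) and was higher in SH3 than in SH1 (1.31 ± 0.22, edgeR adjusted p = 0.0337), and SH3 overlapped control (0.13 ± 0.22). The first call is lost when any 1 library other than SH3 2 is left out, and the second without control 3, any 1 SH1 library, SH3 1 or SH3 3. Both are lost with only the groups compared, with a replicate block and without control 1 and SH1 1 together. These 2 libraries, by which the table was selected, both enter the test of SH1 against control. CARS1, the cysteinyl-tRNA synthetase and chosen after its values were seen, was at 7.47, 12.8 and 7.88 FPKM in control, 7.71, 15 and 10.3 in SH1, and 18, 29.6 and 16.6 in SH3, with SH3 above both other groups and past no threshold (1.08 ± 0.38 against control, edgeR adjusted p = 0.472). The 11 listed synthetases added up to 55.1 to 60.5 FPKM in control, 29.2 to 44.2 in SH1 and 72.5 to 74.4 in SH3, with IARS1 the largest part. The median log2 fold changes of the tested synthetases were -0.52 in SH1 against control, -0.21 in SH3 against control and 1.31 in SH3 against SH1. In SH3 against control 4 were above 0 and 5 below, where 48.6% of all sums were above 0. FARSB, also chosen after its values were seen, was lower in SH3 than in every control (-0.84 ± 0.49 SE). It was at 6.43, 5.21 and 5.61 FPKM in control, 1.78, 6.53 and 4.96 in SH1, and 2.63, 2.84 and 4.6 in SH3.

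**Figure D4:**
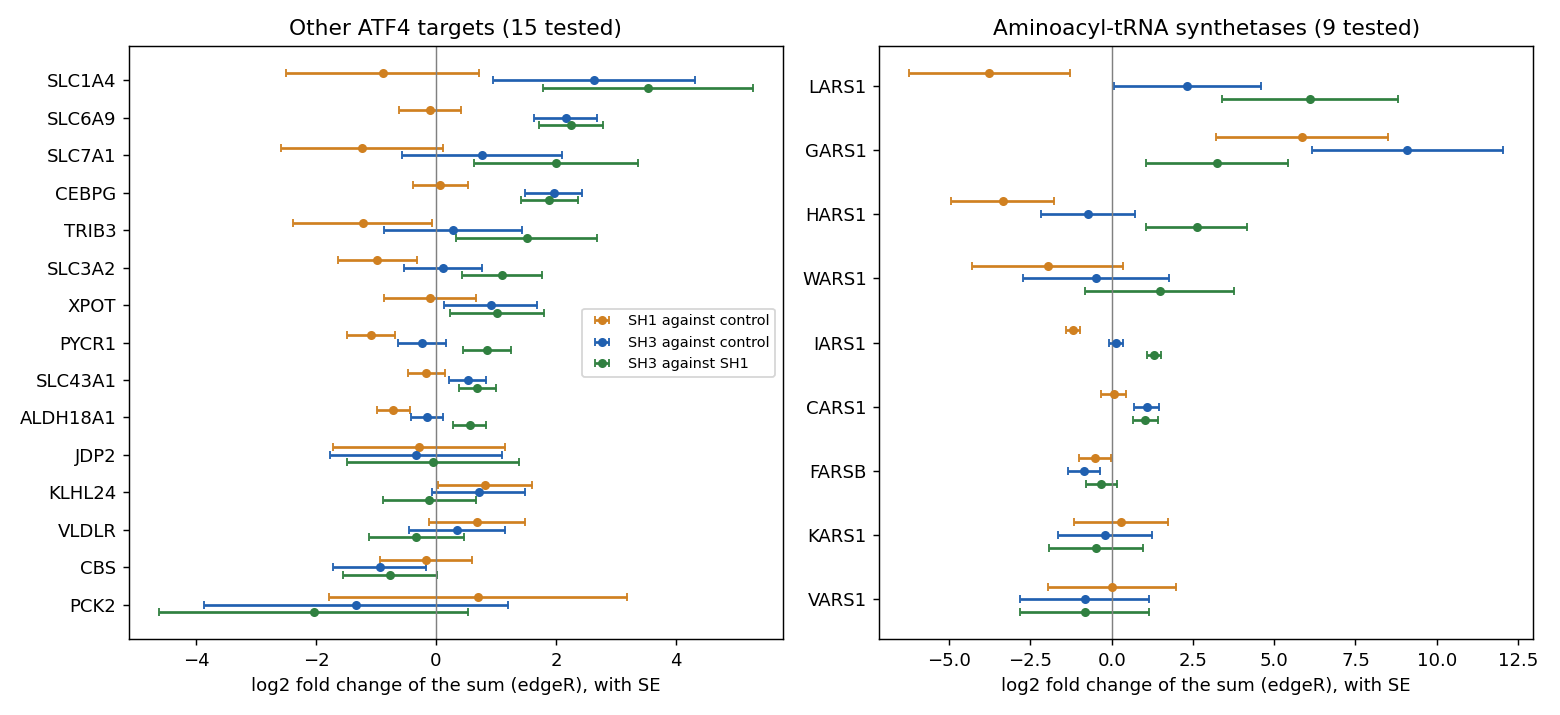
Log2 fold change with SE (horizontal axes, edgeR) of the summed transcripts of the 15 other ATF4 targets (left) and 9 aminoacyl-tRNA synthetases (right) in SH1 against control, SH3 against control and SH3 against SH1. IARS1 was the 1 gene of these past the threshold, lower in SH1 than in control and SH3; GARS1, at 0 in all controls, has values that depend on the prior count of the fit.

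A list of kinases, eIF2 and eIF2B subunits and other regulators of eIF2alpha upstream of ATF4 held 21 genes, ATF4 itself included. Of the 21, 8 were in the table, without ATF4. Of these, 0 passed in each comparison (edgeR, where 0, 0 and 1 had an unadjusted p under 0.05; DESeq2 called 0, 1 and 1, EIF2AK1 as lower), and their summed level was 6.43 to 12.6 FPKM in control, 9.38 to 10.8 in SH1 and 7.88 to 11.6 in SH3. The 3 groups overlapped in this sum. The 2 listed kinases are named after their values were seen. EIF2AK3, the kinase PERK that senses stress in the endoplasmic reticulum, was in SH3 at 0, 0.36 and 0.28 FPKM, beside 0, 1.05 and 0 in control and 0.47, 0.29 and 0 in SH1. EIF2AK1, the kinase HRI, was listed at 0 in all 3 SH3 libraries, at 0, 2.57 and 0 FPKM in control and at 0.36, 3.87 and 0.16 in SH1.

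By the Pearson correlation of log2(FPKM + 1) with the ASNS sum over the 9 libraries, PSPH was the most similar of 3904 genes with a mean of at least 1 FPKM (r = 0.985). BMERB1 (0.962), SYNE3 (0.959), CLTCL1 (0.957) and HES6 (0.952) followed. BMERB1 was at 4.14, 5.08 and 5.27 FPKM in control, 3.09, 3.29 and 4.13 in SH1, and 9.13, 9.45 and 9.24 in SH3. SYNE3, which encodes nesprin-3 of the nuclear envelope, was at 1.16, 1.41 and 1.23 FPKM in control, 0.85, 1.14 and 1.19 in SH1, and 2.23, 2.41 and 2.67 in SH3. PSPH and these 4 genes share with ASNS the high values in the 3 SH3 libraries, which fix most of such a correlation, and the points share their libraries. The 8 genes were chosen by their differences between these groups, so their r with ASNS and their ranks, that of PSPH included, are a description only. Among the 8 genes, the r with ASNS was 0.89 for DDIT3 (rank 21), 0.83 for ATF3 (rank 59), 0.74 for SHMT2 (rank 150) and 0.66 for PSAT1 (rank 258). It was lowest for the transporters, at 0.62 for SLC38A2 (rank 333) and 0.56 for SLC7A5 (rank 436).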

How the data were processed

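RNA sequencing of 9 libraries was used, 3 per group by their labels, with 0 value columns left unassigned. The deposited table gives 4 values per transcript and library, per the file headers: an estimated count (65.11% of the values not whole), FPKM, TPM and a normalized read count. The authors' normalized count, a signal on a linear scale, served only for its library factors. Aligner and counter are not given in the sources used here. The submitters' processing notes name the mouse build mm10, but 20900 transcripts (99.957%) carry human RefSeq gene numbers, so the values were read as human. Estimated counts were summed per Gene ID, rounded, and fitted with edgeR 4.0.16 in R 4.3.3 (TMM, filterByExpr with a minimum count of 10, robust quasi-likelihood, all 9 libraries in 1 fit), as were single transcripts. Benjamini-Hochberg adjustment covered the whole table in each comparison, and the SE is the log2 fold change over the square root of F. The fit was tested on simulated counts with a single low spread, changes only in well-counted rows and no selection like that of the table. Low or unsteady transcripts were thus not covered. Levels are deposited FPKM, and sums cover listed transcripts only. Groups do not overlap where all FPKM values of 1 exceed all of the other. Promoters come from RefSeq (GRCh38.p14).

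The 8 genes and all lists were chosen with earlier results of these data known. Named are the 8 genes, list genes past the threshold, the 4 highest other ATF4 targets and the 5 genes most correlated with ASNS; others were chosen after their values were seen. Alternatives were DESeq2 1.42.0 size factors and Wald test, the authors' factors (added after seeing the data), no filter, only the groups compared, a replicate block, the 7 libraries without control 1 and SH1 1, and leaving out each library.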

Additional observations from a re-analysis of the deposited data

Results flagged for a closer look

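The IARS1 sum was flagged because its change differed between the knockdown groups by a test of the difference itself: SH3 against SH1 gave a log2 fold change of 1.31 ± 0.22 SE (edgeR adjusted p = 0.0337, 1.65e-06 to 0.148 over 16 alternatives). It was higher in 3 of 3 SH3 libraries than in every SH1 library.

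The KRT19 sum was flagged in the same way, with a log2 fold change of 1.86 ± 0.19 SE in SH3 against SH1 (edgeR adjusted p = 0.00344, 4.27e-17 to 0.0339 over 16 alternatives). It was at 70.1, 89.5 and 82.5 FPKM in control, 15.4, 17.5 and 21.6 in SH1, and 60.3, 66.6 and 60.5 in SH3. All 3 SH3 libraries were above all 3 SH1 libraries, and both groups are labelled as the same knockdown.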

How the results depend on the processing

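Among the 8 genes and the other genes named by rule, no sum or transcript past the threshold changed its sign under the alternatives run. Given in the order SH1 against control, SH3 against control and SH3 against SH1, the gene sums called were 137, 26 and 87 in edgeR, 459, 257 and 402 with the DESeq2 Wald test, 47, 8 and 54 with only the groups compared, 88, 12 and 39 with the replicate block, and 57, 7 and 56 in the other 7 libraries. Transcripts called were 23, 5 and 17, then 487, 356 and 380, 3, 0 and 4, 15, 2 and 5 with the replicate block, and 13, 1 and 5. Leaving out 1 library gave 59 to 110, 11 to 25 and 32 to 92 sums, and 11 to 20, 1 to 12 and 1 to 23 transcripts.

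Of the 8 genes, DESeq2 called 3 sums in SH1 against control (ASNS, PSPH and SLC7A5 lower) and 3 in SH3 against SH1 (DDIT3 added). Only the groups compared left 0 and 1 in the comparisons with control, and the replicate block and the other 7 libraries left 1 in SH3 against control. Leaving out 1 library gave 1 to 2, 1 to 2 and 2 to 3 sums; PSAT1 was added without SH1 3, when its SH1 libraries are all at 0. Among their transcripts, DESeq2 called 1 in SH3 against control and 3 in SH3 against SH1, and the 1 call in SH3 against SH1 went to 0 with only the groups compared, the replicate block and the other 7 libraries, and to 0 to 1 when 1 library was left out. It was kept only without control 1 or control 3. Of the other ATF4 targets, DESeq2 called 2 in each comparison with SH3 (CEBPG and SLC6A9). The other 7 libraries gave 1 in SH1 against control and 1 in SH3 against SH1 (SLC1A4, whose remaining SH1 libraries are at 0), and leaving out 1 library gave 0 to 1, 0 to 0 and 0 to 1, with SLC1A4 called without SH1 1. The cause was not tested.

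Whether the replicate numbers pair the libraries was not settled. Same-numbered libraries of different groups correlated at -0.275 to 0.0324 in their deviations over transcripts and at -0.0652 to 0.076 over sums. For differently numbered libraries this was -0.101 to 0.189 and -0.0562 to 0.0953. The -0.275 is that of control 1 and SH1 1, which the selection of the table set apart. Between SH1 and SH3, sums correlated at 0.0333 to 0.076 for the same number and at -0.0562 to -0.00558 otherwise. Sums cover listed transcripts only, and n is 3 per group.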

Other observations

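Of 26 amino acid transporters other than SLC7A5 and SLC38A2, 16 were listed and 14 tested. Of the 14, 5 are also among the ATF4 targets above (SLC1A4, SLC3A2, SLC43A1, SLC6A9 and SLC7A1). In all, 0 passed in each comparison in edgeR, where 2, 4 and 3 had an unadjusted p under 0.05, beside 736, 537 and 690 of all 6398 sums. DESeq2 called 1, 4 and 2, beside 459, 257 and 402 of all sums. In SH3 against control 5 of the 14 had a log2 fold change above 0, as did 48.6% of all sums, and the summed level was 39.5 to 45.2 FPKM in control, 33.7 to 37.4 in SH1 and 34.1 to 40.3 in SH3. SLC7A2, a carrier of arginine and lysine, was chosen here after its values were seen. It was at 6.36, 3.99 and 4.85 FPKM in control, 4.77, 3.74 and 3.96 in SH1, and 2.91, 2.82 and 3.16 in SH3. Its log2 fold changes against control were -0.43 ± 0.18 SE in SH1 and -0.84 ± 0.18 in SH3. SLC7A6, a light chain related to SLC7A5, was chosen in the same way. It was at 6.3, 8.57 and 9.24 FPKM in control, 5.84, 7.78 and 5.84 in SH1, and 4.44, 1.89 and 4.32 in SH3. Its log2 fold changes against control were -0.48 ± 0.35 SE in SH1 and -1.26 ± 0.35 in SH3. For both genes SH1 overlapped control.

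In 2 neighbouring pathways 0 genes passed in each comparison (edgeR): 9 of 20 genes of serine, glycine and folate metabolism were tested (0, 0 and 1 with an unadjusted p under 0.05; DESeq2 called 0, 0 and 1), and 9 of 23 of the other branches of the unfolded protein response (0 in each, and 0 in DESeq2). MTHFD1L, which makes formate in mitochondria from the carbon unit that SHMT2 provides, was at 2.4, 1.14 and 0 FPKM in control, 1.84, 5.49 and 8 in SH1, and 7.49, 11.9 and 4.84 in SH3. Of 27 bZIP factors other than DDIT3, ATF3 and ATF4, 14 were tested, CEBPG and JDP2 of the ATF4 targets among them, and 0 passed (edgeR, where 0, 1 and 1 had an unadjusted p under 0.05; DESeq2 called 0, 1 and 1, CEBPG as higher). NFE2L1, which drives proteasome genes, was at 0.06, 5.42 and 0 FPKM in control, 5.19, 7.62 and 7.66 in SH1, and 22.2, 23.2 and 20.6 in SH3. Both genes were chosen after their values were seen, and SH3 was above every control in each.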
